A study of Oryctolagus cuniculus with 12 samples.

Results

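Hepatocyte growth factor (HGF) was followed across the aortas of rabbits with an untreated coarctation (CoA), rabbits in which the coarctation had resolved (Corrected) and rabbits without one (Control). The array held 3 probes whose RefSeq accession belongs to the rabbit gene HGF, and these are all the members described. HGF is 1 of the 1264 gene symbols that could be assigned to probes here, and 958 of these symbols had a detected probe. All 3 probes were detected on all 12 arrays, so none was lost to the filter on low values. The gene was chosen by its measured signal, which was higher in both groups with a coarctation than in Control. Its signals and the differences between the groups are therefore given as a description, with no test.

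HGF is secreted mainly by mesenchymal cells such as fibroblasts and smooth muscle cells, as an inactive single chain that serine proteases cleave into the active growth factor. The active form binds the receptor tyrosine kinase MET, which signals through the MAP kinase and phosphoinositide kinase pathways, and it is known in vessels for stimulating the growth and survival of endothelial cells. It belongs to the kringle proteins and is related to plasminogen, although it has no protease activity of its own.

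All animals were male New Zealand white rabbits, and a ring of the thoracic aorta of about 4 mm was taken at 32 weeks of age, proximal to the coarctation, for 1 array of total RNA per rabbit. In the CoA group (4 rabbits), a gradient of 20 mmHg had been set at about 10 weeks of age with permanent silk suture. In the Corrected group (4 rabbits), the same gradient had been set with Vicryl suture, which degrades, so that a modest narrowing remained. The Control rabbits (4) were non-experimental animals. No sham operation was included, so surgery and coarctation cannot be told apart in any comparison with Control.

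The array of the rabbit Corrected replicate 3 was kept out of the groups, following the methods, and its HGF values are given apart. It had the lowest share of spots well above background (45.6%), which was 69.7% to 77.7% on the Control arrays, 55.8% to 69.7% on the CoA arrays and 61.8% to 68.5% on the Corrected arrays used. Arrays with the same recorded scan time were counted as a slide. The CoA arrays shared a slide, so defined, that held no other group, and the effects of slide and of CoA cannot be told apart. Corrected replicates 1, 3 and 4 likewise shared a slide without any other group, so for them slide and group cannot be told apart either. The slide of Corrected replicate 2 also held Control replicates 1, 2 and 4, whereas Control replicate 3 had been scanned on a different day. Of all pairs, Control replicates 3 and 4 were the most alike over the 11 arrays, with an SD of their log2 differences over probes of 0.186, against 0.313 to 1.20 for the other pairs. The smooth muscle genes MYH11 and ACTA2 were among the bright signals, with means of 13.33 to 13.97 and 15.59 to 16.09 on the log2 scale. Both encode contractile proteins that mark the smooth muscle of the aortic media.

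For the brightest HGF probe (A_04_P086778), the log2 signal after quantile normalization was 5.96, 6.32, 5.41 and 5.41 on Control replicates 1 to 4. It was 7.09, 7.80, 7.13 and 7.66 on CoA replicates 1 to 4. On Corrected replicates 1, 2 and 4 it was 6.43, 7.86 and 8.19. Every CoA array and every Corrected array used lay above the highest Control array, which was Control replicate 2, and Corrected replicate 1 lay only just above it. The array of Corrected replicate 3, which was kept out of the groups, had a signal of 8.60, above all 11 arrays used. Before normalization its signal was 67.2, within the Control range of 38.2 to 126.6.

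The Control mean of this probe was 5.78 ± 0.45 (SD, n = 4). The CoA mean was 7.42 ± 0.36 (SD, n = 4) and the Corrected mean 7.49 ± 0.93 (SD, n = 3). CoA was higher than Control by 1.65 on the log2 scale (standard error 0.40, 3.13-fold), and Corrected was higher than Control by 1.72 (standard error 0.43, 3.29-fold). The mean of CoA minus that of Corrected was -0.07 (standard error 0.43), which is smaller than the SD of either group, and the arrays of these groups overlapped. In the order of the levels, Control was thus the lowest, while CoA and Corrected did not differ beyond their spread. Corrected had the widest spread, and its replicates 1 and 4 were the lowest and the highest of its 3 arrays. In bulk tissue, a change in the number of cells that make HGF and a change in the HGF RNA of each cell cannot be told apart.

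**Figure D1:**
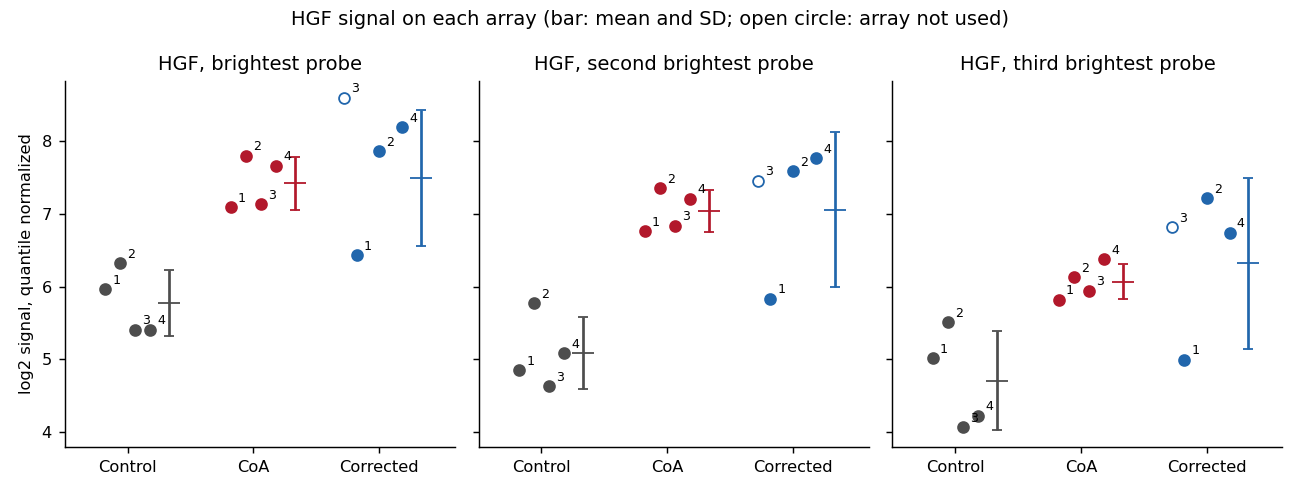
Log2 signal of the 3 HGF probes after quantile normalization (vertical axis) on each array, by group; numbers are the replicates, bars give the mean and SD of the arrays used, and the open circle is Corrected replicate 3. For the brightest probe, all CoA arrays (7.09 to 7.80) and the Corrected arrays used (6.43 to 8.19) lay above the Control arrays (5.41 to 6.32), and for the dimmest probe Corrected replicate 1 (5.0) lay among the Control arrays.

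The second brightest probe (A_04_P086779) had log2 signals of 4.85, 5.77, 4.63 and 5.09 on the Control arrays, 6.76, 7.35, 6.84 and 7.21 on the CoA arrays and 5.83, 7.58 and 7.76 on the Corrected arrays used. Its means were 5.09 ± 0.49 (SD, n = 4), 7.04 ± 0.29 (SD, n = 4) and 7.06 ± 1.07 (SD, n = 3). Neither group overlapped Control, and again Corrected replicate 1 came closest, 5.83 against 5.77 on Control replicate 2. CoA was higher than Control by 1.95 (standard error 0.43, 3.88-fold) and Corrected by 1.97 (standard error 0.46, 3.93-fold).

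The dimmest probe (A_04_P086777) had log2 signals of 5.01, 5.51, 4.07 and 4.23 on the Control arrays, 5.82, 6.13, 5.95 and 6.38 on the CoA arrays and 5.0, 7.22 and 6.74 on the Corrected arrays used. Here the Corrected arrays overlapped Control through Corrected replicate 1, whereas all CoA arrays were above Control. The differences from Control were 1.36 for CoA (standard error 0.48, 2.57-fold) and 1.61 for Corrected (standard error 0.52, 3.06-fold). On Corrected replicate 3, the second brightest and the dimmest probe had signals of 7.46 and 6.82, both above all Control arrays.

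The probes thus differed in the size of the difference, from 1.36 to 1.95 on the log2 scale for CoA, but gave the same order of the groups against Control. Over the 11 arrays used, pairs of HGF probes had a Pearson correlation of 0.94 to 0.98, and after the group means were subtracted 0.89 to 0.93. The latter range describes arrays within a group, so the probes rose and fell together there too. Among the 479 genes with at least 2 detected probes, the median gene had a correlation of 0.91 both before and after the group means were subtracted. HGF lay above 65.3% of these genes before and above 50.9% after, so its probes agreed about as well as those of a typical gene.

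Since the gene was chosen for its difference, the following shares are the setting and no evidence. For CoA vs Control, 3 of 3 HGF probes had groups that did not overlap with CoA higher, as had 6.87% of the 27283 probes tested. For Corrected vs Control, this held for 2 of 3 HGF probes and for 5.25% of all probes. A larger rise than that of the brightest HGF probe was measured for 1.31% of the probes in CoA and for 0.524% in Corrected. HGF was therefore among the larger rises but not at the head of either comparison. Both comparisons use the same Control arrays.

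Before any normalization, the processed signal of the brightest probe was 126.6, 92.0, 59.8 and 38.2 on the Control arrays and 142.5, 99.9, 155.2 and 227.9 on the CoA arrays. On the Corrected arrays used it was 161.8, 377.4 and 180.4. On this scale CoA replicate 2 lay below Control replicate 1, so CoA and Control overlapped, while the Corrected arrays did not overlap Control. CoA replicate 2 was also the dimmest of the arrays used as a whole, with a median signal over all spots of 20.4 against 28.1 to 64.0 on the others. Divided by the median spot of its own array, the probe was at 1.28 to 2.49 in Control, 4.18 to 6.36 in CoA and 2.71 to 8.30 in Corrected, and the groups no longer overlapped Control. Corrected replicate 1, the lowest for HGF in its group, had the brightest array of the 3 (median 59.7), and Corrected replicate 4, the highest, had the dimmest (28.1). The part of array brightness in these differences was not tested beyond the scalings given here.

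HGF was a signal of middling brightness. The brightest probe ranked above 53.8% to 62.6% of all probes on the Control arrays, above 68.8% to 73.7% on the CoA arrays and above 63.6% to 76.1% on the Corrected arrays used. Its uncorrected median signal was 3.45 to 8.37 times the local background in Control, 6.23 to 13.7 times in CoA and 10.8 to 19.6 times in Corrected. The size of the difference depended on the scale. When arrays were scaled to the 75th percentile rather than quantile normalized, the differences from Control were 1.70 for CoA and 1.79 for Corrected. With the normexp model of background, applied to the median signals with an offset of 50, they fell to 0.90 (1.87-fold) and 0.97 (1.96-fold), below 2-fold in both. The parts of the background model, the median signals and the offset in this fall were not tested apart. The groups of the brightest probe still did not overlap Control, with 7.11 to 7.52 in Control, 7.95 to 8.45 in CoA and 7.59 to 8.70 in Corrected.

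**Figure D2:**
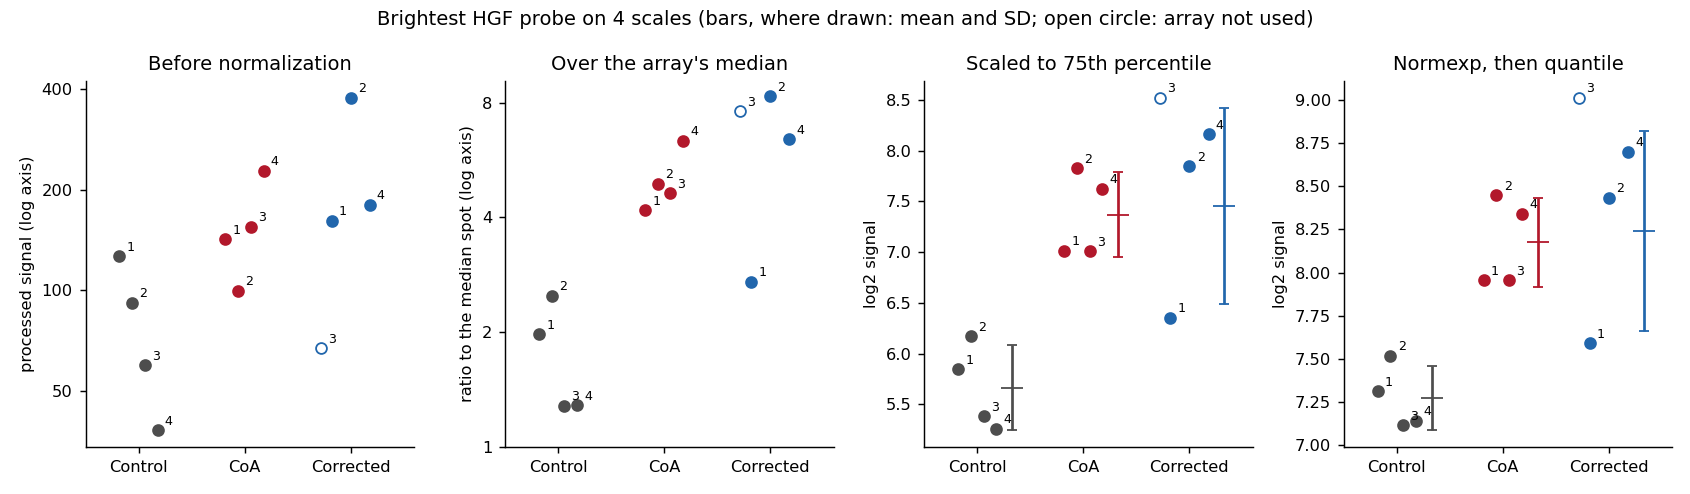
Brightest HGF probe on 4 scales, by group, with replicate numbers: processed signal before normalization and the ratio to the median spot of the array (both on log axes), log2 signal scaled to the 75th percentile, and log2 signal after normexp. CoA replicate 2 (99.9) lies below Control replicate 1 (126.6) only before normalization, and on the normexp scale the distance between the groups is shorter, 0.90 for CoA and 0.97 for Corrected.

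Leaving out 1 array at a time, the CoA difference stayed between 1.52 (without CoA replicate 2) and 1.83 (without Control replicate 2). The Corrected difference ranged from 1.37 (without Corrected replicate 4) to 2.25 (without Corrected replicate 1). Its size thus moved most with the arrays of its own group. On the slide that Control replicates 1, 2 and 4 shared with Corrected replicate 2, the signal was 5.96, 6.32 and 5.41 against 7.86. With Control replicates 3 and 4 counted as 1 sample, the differences were 1.53 and 1.60.

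**Figure D3:**
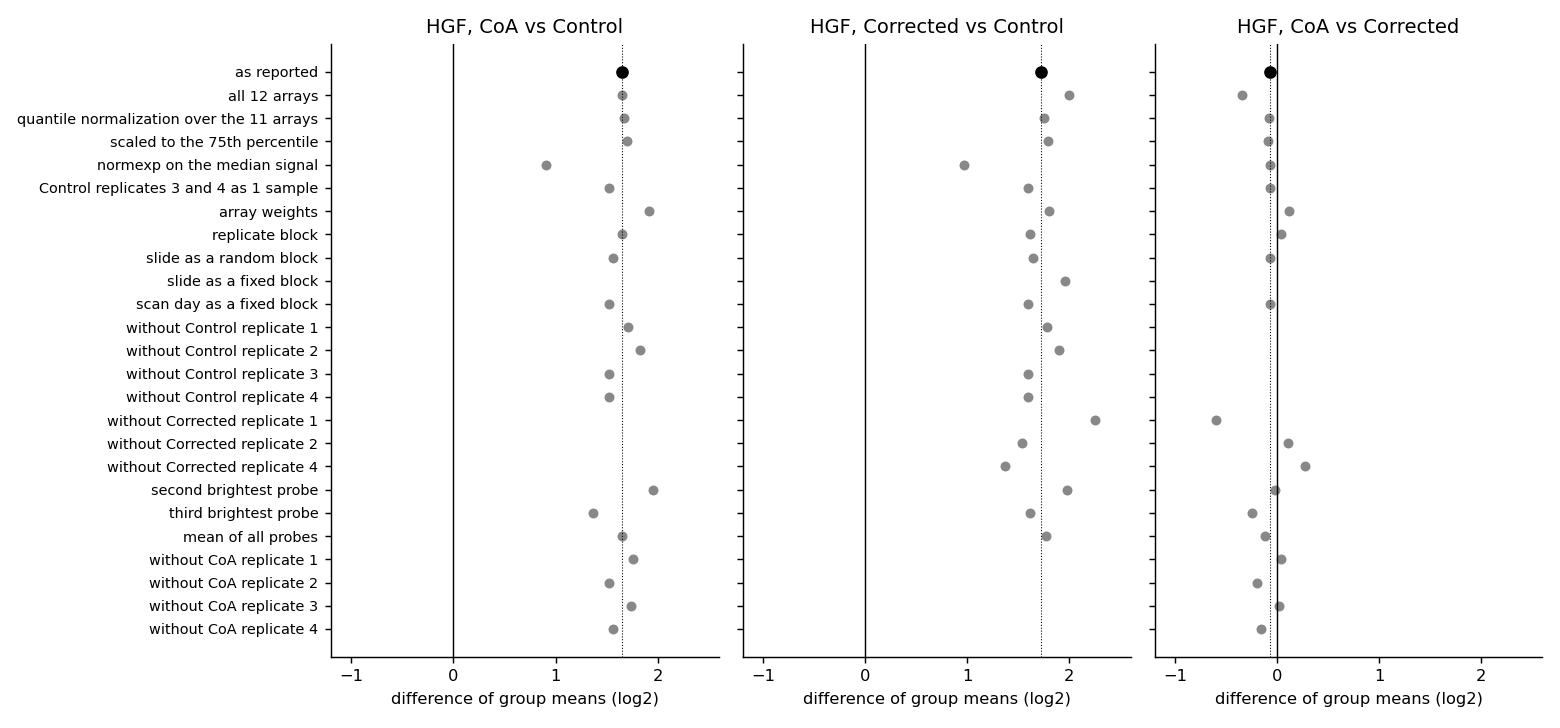
Difference of group means of HGF on the log2 scale (horizontal axis) for the 3 comparisons, as reported (black, dotted line) and under each alternative (grey). All differences from Control lie above 0, the smallest being those with normexp (0.90 and 0.97), whereas those of CoA from Corrected lie on both sides of 0 (-0.60 to 0.28).

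In the rabbit assembly mOryCun1.1, whose gene table was used for names, HGF lies on chromosome 3 between LOC100348313 and CACNA2D1, a subunit of voltage-gated calcium channels. Only CACNA2D1 of the nearest genes had named probes, and its 2 probes had log2 differences of -0.22 and -0.62 for CoA vs Control and of 0.43 and 0.51 for Corrected vs Control, all with limma's unadjusted p over 0.05. The neighbour with a signal was therefore not called in either comparison with Control. For CoA vs Corrected, its probes differed by -0.65 and -1.14, with limma's unadjusted p of 0.047 and 0.049. The latter probe was thus over 2-fold with a p under 0.05, as were 2.77% of all probes.

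Apart from HGF, the pathway was followed through a list of 132 genes that holds its proteases, their inhibitors, receptors, signalling proteins, targets and regulators. Only 37 of these had a named probe and 28 were tested. A gene was called when it changed by more than 2-fold with an unadjusted p under 0.05 in limma, a criterion taken from the study. By this rule 7 of 28 genes were called for CoA vs Control, 4 higher and 3 lower, where 8.81% of all probes were called, 3.59% higher and 5.22% lower. For Corrected vs Control, 5 of 28 were called, 3 higher and 2 lower, where 5.39% of all probes were called, 2.41% higher and 2.98% lower. The median log2 difference over the list was 0.23 and 0.14, against 0.06 and 0.03 over all probes. In neither comparison did any probe pass, in this fit, a Benjamini-Hochberg adjusted p of 0.05, although 14.2% and 8.35% of the probes had an unadjusted p under 0.05. The smallest adjusted p of all probes was 0.217 and 0.240 in limma, and the called genes of the list had adjusted p of 0.243 to 0.335 and of 0.485 to 0.596.

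Of the proteases that can cleave the HGF precursor, PLAU (urokinase) was bright, with means of 12.59 ± 0.53 in Control, 12.24 ± 0.37 in CoA and 13.05 ± 0.81 in Corrected. PLAT (tissue plasminogen activator) was dim, with means of 3.20, 3.74 and 3.97, and was detected on 8 of 12 arrays. Neither was called in any comparison, and they are also the only other kringle proteins with a named probe. F11 (coagulation factor XI) was not well above background on any array. SERPINF2, an inhibitor of plasmin, was not called, with log2 differences of 0.36 and 0.04 from Control. The receptor MET had a single named probe, which was not well above background on any of the 12 arrays (1.31 to 2.48 on the 11 arrays used). Its level in these aortas could therefore not be compared. MAP2K1 and PRKCB, the signalling proteins that could be tested, were not called.

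Among the 10 genes of the list described as targets of HGF or of its signalling that could be tested, 3 were called higher and 1 lower in each comparison with Control. TIMP1, an inhibitor of matrix metalloproteases, was 12.74, 12.19, 11.70 and 11.53 on the Control arrays, 13.42, 13.25, 12.62 and 13.34 on the CoA arrays and 14.05, 12.48 and 12.75 on the Corrected arrays used. It rose by 1.12 in CoA and 1.05 in Corrected, with overlapping arrays in both. PTGS2, the inducible cyclooxygenase, rose by 1.00 and 1.03, and its 2 further probes differed by 0.80 and 1.24 in CoA and by 1.05 and 1.04 in Corrected without being called. JUN, a subunit of the transcription factor AP-1, rose by 1.39 in CoA, and in Corrected it differed by 1.26 without being called. FOS, which pairs with JUN, was 9.39, 7.65, 7.73 and 7.75 on the Control arrays and 9.76, 10.76 and 10.12 on the Corrected arrays used, where it rose by 2.08 with groups that did not overlap. In CoA it differed by 1.35 and was not called, with 7.21 on CoA replicate 2 and 9.66 to 10.84 on the others. MMP1, the interstitial collagenase, fell by 1.15 in CoA and by 1.36 in Corrected, and 2 further probes of it were not detected on enough arrays. On Corrected replicate 3, which was not used, it was 10.51, above the Control range of 7.39 to 8.42. With all 12 arrays, MMP1 differed by -0.36 in Corrected and was not called. CXCL8 differed by 1.37 in CoA and 1.60 in Corrected by its brightest probe without being called. A further CXCL8 probe passed the rule in Corrected (1.68), and its remaining probes did not. ETS1 was detected on the Control arrays alone (2.62 to 3.40) and was therefore not tested.

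Among the 13 genes described as regulators of HGF transcription, IL1A, a cytokine that induces HGF in fibroblasts, was called higher in CoA. It was 5.05, 5.97, 4.61 and 3.89 on the Control arrays, 7.83, 5.90, 5.79 and 8.80 on the CoA arrays and 5.55, 6.81 and 6.84 on the Corrected arrays used. The rise in CoA was 2.20 (limma's adjusted p = 0.269, and 0.000918 to 0.615 under the alternatives), although CoA replicates 2 and 3 lay within the Control range. The 2 further IL1A probes that were tested differed by 1.25 and 0.42. PPARG, a nuclear receptor and master regulator of adipocytes, was 11.44, 9.19, 10.68 and 10.76 on the Control arrays, 5.22, 7.53, 9.15 and 7.46 on the CoA arrays and 9.72, 8.62 and 6.32 on the Corrected arrays used. It fell by 3.17 in CoA (limma's adjusted p = 0.243, and 0.00143 to 0.615 under the alternatives), where all arrays lay below Control (as for 3.37% of all probes), and by 2.29 in Corrected, where they overlapped. PTGER3, a receptor for E-type prostaglandins, fell by 2.33 in CoA, with 11.63 to 12.01 on the Control arrays and 7.0, 9.85, 11.79 and 9.50 on CoA replicates 1 to 4. Its 2 further probes fell by 3.61 and 3.90. Under the alternatives, limma's adjusted p for CoA also fell to 0.00131 for TIMP1, 0.00461 for MMP1 and 0.00571 for PTGER3. Such low values are not particular to a gene, since with array weights, 1 of the alternatives, 11022 of the 27283 probes passed adjustment. The other 10 regulators, among them IL1B, IL6, TNF and HIF1A, were not called for CoA vs Control. In Corrected, IL6 differed by 2.41 by its brightest probe without being called. A further IL6 probe passed the rule there (2.58), and its remaining probes did not.

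**Figure D4:**
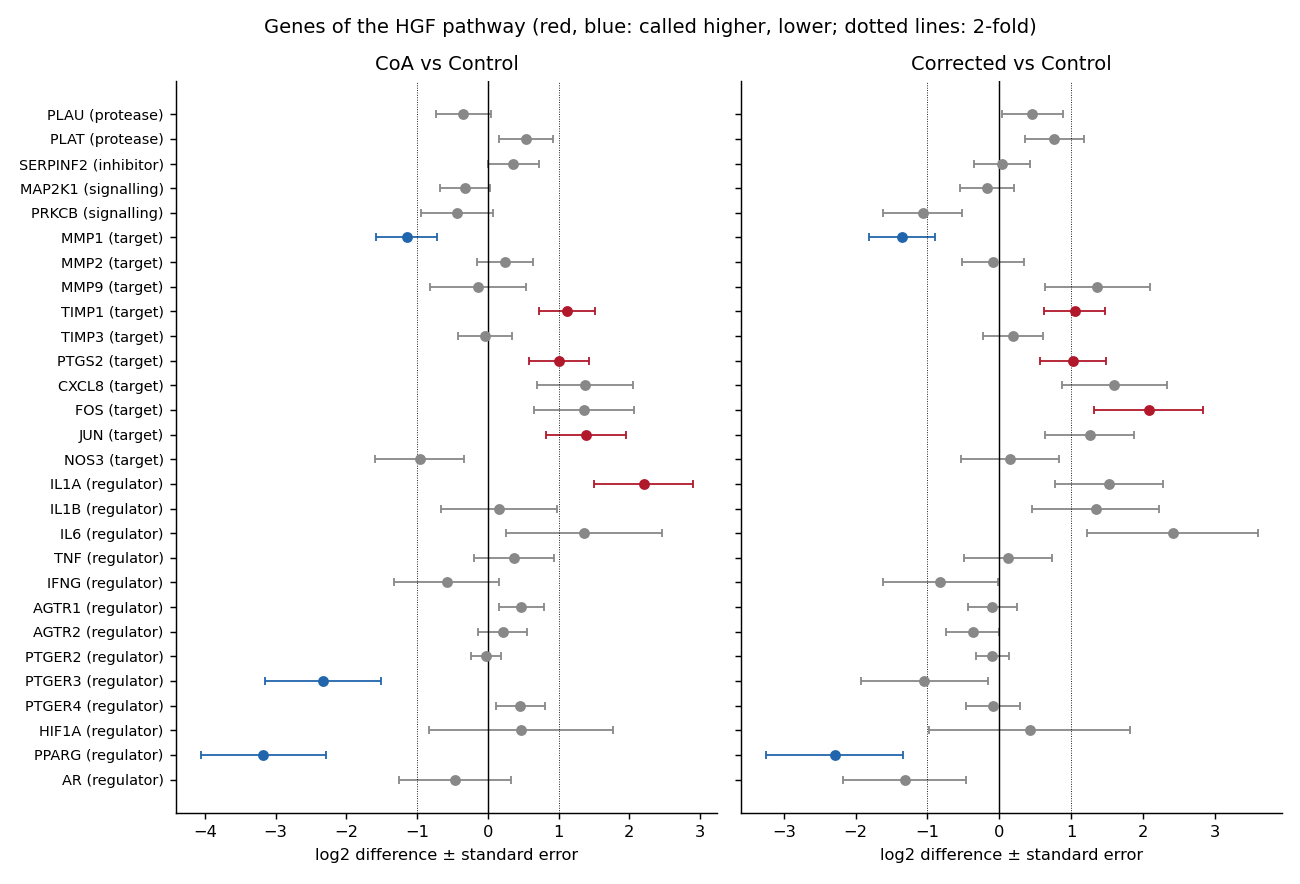
Log2 difference from Control with its standard error (horizontal axis) for the 28 tested genes of the HGF pathway, with the role of each in brackets; red and blue mark genes called higher and lower, and dotted lines mark 2-fold. For CoA, 4 genes were called higher and 3 lower, and for Corrected 3 higher and 2 lower.

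Several of these calls were lost when 1 array was left out, some of them (PTGS2 in CoA, PPARG in Corrected) with a difference that in part stayed as large and with fewer arrays behind the test. In CoA vs Control, IL1A, PPARG and PTGER3 stayed called whichever array was left out. MMP1 was no longer called without Control replicate 3 (-0.97) or CoA replicate 1 (-1.01), TIMP1 without Control replicate 4 (0.95) and JUN without Control replicate 3 (0.97), CoA replicate 2 (1.22) or CoA replicate 4 (1.1). PTGS2 was lost without Control replicates 1 (0.74), 3 (0.96) or 4 (0.95) and without CoA replicates 1 (0.81), 2 (1.01) or 3 (1.03). In Corrected vs Control, FOS and MMP1 were lost without Corrected replicate 2 (1.81 and -0.89), and TIMP1 without Control replicates 3 (0.94) or 4 (0.88) or Corrected replicate 1 (0.58). PPARG was lost there without Control replicates 1 (-1.99), 3 (-2.24) or 4 (-2.21) or Corrected replicates 2 (-2.49) or 4 (-1.34). PTGS2 was lost without Control replicates 1 (0.77), 3 (0.99) or 4 (0.97) or Corrected replicates 2 (0.85) or 4 (0.83).

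For CoA vs Corrected, 0 of the 28 pathway genes were called, and 0 had an unadjusted p under 0.05 in limma, where 2.77% of all probes were called and 4.31% had such a p. The median log2 difference of the list was 0.05, against 0.02 over all probes. For PTGER3, however, the probes disagreed, since its 2 further probes were lower in CoA than in Corrected by more than 2-fold (-3.41 and -3.57, with limma's unadjusted p of 0.027 and 0.028), whereas the brightest probe differed by -1.29 and was not called.

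Of 57 other secreted growth factors listed, 14 had a named probe and 9 were tested. None was called for CoA vs Control, and BMP2 and LIF differed by 0.92 and 1.40 without being called. For Corrected vs Control, CSF2, a growth factor of granulocytes and macrophages, was the only one called, and rose by 1.06. Its arrays did not overlap, with 5.10, 5.85, 5.81 and 5.44 in Control and 6.74, 6.01 and 7.09 in Corrected, but the value was 4.96 on Corrected replicate 3. Of its 4 further probes, 3 passed the same rule (1.12, 1.41 and 1.14) and 1 differed by -0.46. The call was lost without Control replicate 1 (0.91), Corrected replicate 1 (1.00) or Corrected replicate 4 (0.82). FGF1, FGF7 and KITLG were detected on 2 arrays or fewer, and the remaining listed growth factors tested, IGF1, PDGFD, TGFB2, BMP2, BMP4, LIF, INHA and MSTN, were not called in either comparison.

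The genes whose signal followed HGF were sought among 920 named genes, each by its brightest detected probe, over the 11 arrays used. Because the groups themselves differ in HGF and the arrays share slides and brightness, these correlations are descriptive. The highest Pearson correlations with the brightest HGF probe were those of SLC25A24 (0.91), a mitochondrial carrier of ATP and phosphate, JPH1 (0.91), a junctophilin, STEAP1 (0.90), a membrane protein of the metalloreductase family, and SLC2A1 (0.89), the glucose transporter of most cells. FKBP1B (which binds ryanodine receptors), CAMK2D (a calcium and calmodulin-dependent kinase) and PLN (phospholamban) followed with 0.89 each, SELENOK (a selenoprotein of the endoplasmic reticulum) with 0.88 and AHSA2P with 0.87. The median correlation over the named genes was 0.10. Of all 27280 probes compared, 172 had a higher correlation than the last of these genes, and most of them have no name here.

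Within the groups, the correlation of the 10 highest genes was between 0.64 (STEAP1) and 0.91 (SELENOK) after the group means were subtracted. Leaving out any 1 array, the lowest was 0.83. Without the arrays farthest from the median of HGF, Control replicates 3 and 4, they were 0.77 to 0.88. The 10 genes were picked by their correlation on these same arrays, which favours high values here, so these values are no evidence. The choice of genes depended on the scale. Of the 10, 8 were also among the highest 10 with normexp, 6 with Corrected replicate 3 included, 5 with scaling to the 75th percentile and 3 after the group means were subtracted. With all 12 arrays, FKBP1B had a correlation of only 0.43.

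Read by array, JPH1 was 9.10, 10.82, 8.66 and 8.55 on Control replicates 1 to 4, where replicate 2 was also the highest for HGF. It was 11.13, 11.44, 10.22 and 11.08 on the CoA arrays and 9.24, 11.10 and 11.49 on Corrected replicates 1, 2 and 4. CoA replicate 3 and Corrected replicate 1 thus lay within the Control range. SLC2A1 was 10.47, 11.39, 10.86 and 10.14 in Control, 11.79, 12.06, 11.13 and 12.34 in CoA and 11.23, 11.99 and 13.38 in Corrected, and here too the groups overlapped Control. In the other direction, ADCY5 (an adenylyl cyclase, -0.90), LASP1 (an actin-binding protein, -0.90), THEMIS2 (-0.89), CYP2C (a cytochrome P450, -0.88) and DDIAS (-0.87) had the lowest correlations. ADCY5 was 5.66, 5.17, 6.64 and 6.70 in Control, 4.67, 4.54, 5.13 and 4.29 in CoA and 6.10, 4.92 and 4.51 in Corrected. The correlation of LASP1 was only -0.26 with scaling to the 75th percentile.

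**Figure D5:**
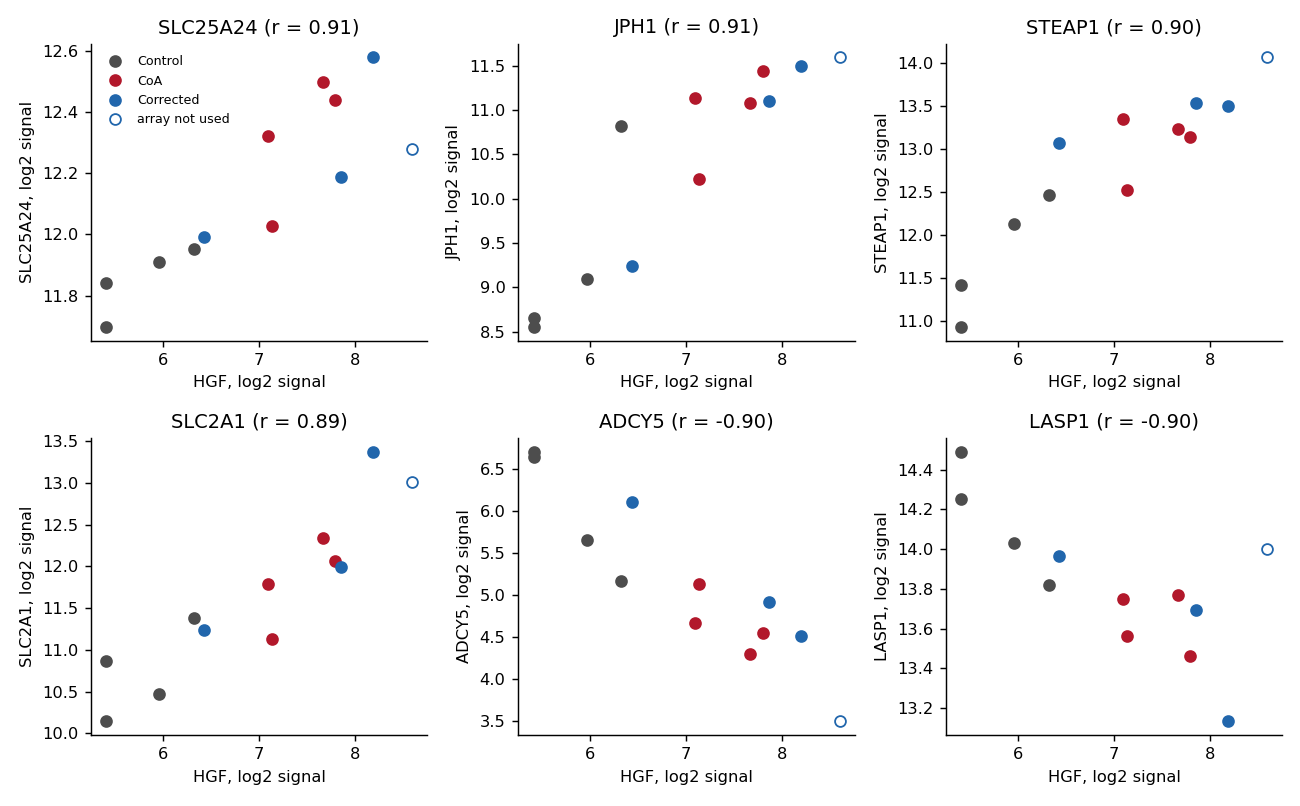
Log2 signal of 4 of the genes most like HGF and of 2 of the genes most unlike it (vertical axes) against that of the brightest HGF probe (horizontal axis), 1 point per array, with Pearson's r over the 11 arrays used; the open circle is Corrected replicate 3. SLC25A24, JPH1, STEAP1 and SLC2A1 were higher on arrays with more HGF signal (r from 0.89 to 0.91), and ADCY5 and LASP1 were lower (-0.90 for both).

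Some marker genes of other cell types differed between the same groups, and their part in the difference in HGF was not tested. Of 14 macrophage markers, 7 had a named probe and 6 were detected on enough arrays, and their summed signal was 3461 to 11174 in Control, 11868 to 25409 in CoA and 11299 to 29213 in Corrected. SPP1 (osteopontin) was the only one of these 6 that was called, higher by 2.86 in CoA and 1.95 in Corrected. Sums without a gene or an array, here and for the muscle markers, were chosen after seeing the data. Without SPP1 they overlapped, at 1638 to 6778 in Control, 4206 to 6258 in CoA and 3986 to 25410 in Corrected, and MSR1 and TLR2 differed by -0.30 and -0.23 in Corrected. The general marker CD14 was detected on all 12 arrays and differed by 0.36 and 0.53 without being called. Adipocyte markers (6 of 14 with a probe, 5 detected on enough arrays) summed to 10291 to 18257 in Control, 1202 to 11242 in CoA and 4476 to 14929 in Corrected, and ADIPOQ and PPARG were called lower in CoA. SLC2A4 differed there by -1.51 by its brightest probe without being called, while further probes of it passed the rule (-1.62, -1.52, -1.77 and -1.51). Of the 5 adipocyte markers, 1 (LEP, 0.17) was above 0 in CoA. UCP1 was detected on too few arrays to be tested. It was 4.13 to 7.33 in Control, 2.87 to 3.65 in CoA and 3.49 to 3.81 in the Corrected arrays used.

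The summed signal of 6 cardiac muscle markers was 15353 to 28446 in Control, 28733 to 143873 in CoA and 24068 to 68151 in Corrected. The highest CoA sum was that of replicate 2, and the other 3 CoA arrays lay between 28733 and 41979. PLN, 1 of the genes most like HGF, is among these markers and was called higher in CoA (1.39) but not in Corrected (0.87), and TNNC1 was called higher in both (3.31 and 2.38). For skeletal muscle (6 of 15 tested), the sums were 469 to 1303 in Control, 1599 to 44426 in CoA and 3309 to 4304 in Corrected, with TNNC2 called higher in both (3.12 and 2.56). The highest CoA sum was again that of replicate 2, and the other 3 CoA arrays lay between 1599 and 2946. Without TNNC2 those 3 arrays summed to 89.1 to 139, against 104 to 267 in Control. The median difference of the 6 genes in CoA was -0.38, with 2 of 6 above 0. MYH1 was called higher in Corrected (2.82), and MYH1 and ATP2A1 were called lower in CoA than in Corrected (-3.14 and -2.62). Nerve markers (4 of 10) summed to 5363 to 8427 in Control and 8502 to 13302 in CoA, without overlap, and to 6772 to 12636 in Corrected, and NPY was called higher in both groups (2.72 and 1.49). The globin genes HBA and HBB2 were called lower in CoA, with sums of 318802 to 475259 in Control, 32698 to 245391 in CoA and 230247 to 403393 in Corrected.

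Among the markers of the vessel wall itself, few were called. Smooth muscle markers (5 of 12 tested) summed to 97507 to 210466 in Control, 102502 to 231781 in CoA and 192888 to 231260 in Corrected, and only TPM2 was called, higher in Corrected by 1.30. Fibroblast and matrix markers (5 of 16 tested) summed to 268634 to 374398 in Control, 305197 to 367932 in CoA and 147460 to 423572 in Corrected, and none was called by its brightest probe. LUM (lumican) differed by 0.94 in CoA by that probe, and 1 of its 3 further probes passed the rule there (1.18). Endothelial markers (5 of 15 tested) summed to 7288 to 15581, 5552 to 16387 and 12534 to 13309, and none was called. Of the T cell markers (2 of 13 tested), CD5 was called lower in both groups (-1.27 and -2.41) and CTLA4 differed by 0.65 and 0.34 without being called. CD3E, CD247, CD4 and CD28 were detected on too few arrays to be tested. CD3E was 4.86 to 6.84 in Control, 2.10 to 5.35 in CoA and 1.21 to 4.35 in the Corrected arrays used. For CD247 these ranges were 5.08 to 7.13, 2.91 to 5.34 and 2.83 to 5.06. CD4 (3.05 to 4.19 in Control, 3.31 to 4.93 in CoA) and CD28 (2.47 to 4.18, 3.03 to 4.84) showed no such fall in CoA. No mast cell marker had a named probe.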

How the data were processed

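Aortic rings of 12 rabbits were measured on Agilent rabbit arrays with 1 dye (Cy3). For each array, the authors deposited a table from Agilent Feature Extraction 11.0.1.1. Its processed signal is an intensity with the background subtracted, without normalization across arrays. Median intensities of each spot and its surroundings, and the spot flags, were deposited in the same files. From these, log2 processed signals were quantile normalized over 12 arrays, spots flagged as outliers were dropped and the spots of a probe were averaged. Of 43603 probes, 27283 were detected (both signal flags set on over 50% of their spots) on at least 8 of 12 arrays. Symbols were assigned to 3368 probes (7.72%) by RefSeq accession through the gene table of the assembly mOryCun1.1, and other probes stayed unnamed.

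The 11 arrays used were fitted together, as 3 groups, by limma 3.58.1 under R 4.3.3, with eBayes, two-sided tests and Benjamini-Hochberg adjustment over all probes, and the scripts were checked on simulated data. A gene was represented by its brightest detected probe. Genes named were HGF, called genes of the pathway and growth factor lists, proteases, inhibitors, the receptor and kringle proteins with a probe, and the 10 most and 5 least like HGF by Pearson correlation. Marker genes, neighbours and CD14, BMP2 and other listed genes named without a call were added to these after their values were seen. The members and lists were chosen with earlier results of these data known. The few arrays limit the precision. Python 3.11.15 with pandas 2.3.3, numpy 2.4.6 and matplotlib 3.10.9 drew the plots. Of the 10 genes most like HGF, 1 is not reported here by name, nor is 1 of the nerve markers. Probe sequences and genome coordinates were not used here.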

Additional observations from a re-analysis of the deposited data

Results flagged for a closer look

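Corrected replicate 3, an array outside the comparisons, carried HGF signal above the Control arrays on all 3 probes. Its log2 signal was 8.60 on the brightest probe, where the highest Control array had 6.32, 7.46 on the second brightest (5.77) and 6.82 on the third brightest (5.51). On this array fewer spots were well above background than on any other (45.6%), and its HGF signal before normalization was 67.2 on the brightest probe, which lies within the Control range of 38.2 to 126.6.

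Among the HGF probes and genes named beside HGF, 60 groups of 4 arrays were examined for an array far from the other 3, and 4 were found, where chance gives about 1 in 20. PLN was at 13.41 on CoA replicate 2, against 12.14 to 12.23 on the other CoA arrays. THEMIS2 was at 4.78 on Control replicate 2, against 7.34 to 7.46 on the other Control arrays, and that array had the highest HGF signal of the group. FOS was at 9.39 on Control replicate 1, against 7.65 to 7.75. JUN was at 4.09 on Control replicate 3, against 5.61 to 5.88 on the other Control arrays, and its call for CoA vs Control was lost without that array.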

How the results depend on the processing

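All 114 differences from Control computed for any HGF probe, as reported and under the alternatives, were above 0. The gene was chosen for a signal above Control and the alternatives share arrays, so these signs are no evidence. Some differences were also counted more than once, since scan day as a block gave the same value as leaving out Control replicate 3. The alternatives to the brightest probe as reported included the second brightest probe, the dimmest probe and the mean of all HGF probes. The difference moved by more than the residual SD of the fit of the brightest probe (0.585) only with normexp (0.90 for CoA, 0.97 for Corrected). The other 19 of 20 alternatives for CoA and 19 of 20 for Corrected stayed over 2-fold. The difference of CoA from Corrected moved by less than this residual SD under 19 alternatives (-0.60 to 0.28). Scaling to the 75th percentile moved the median difference over all probes to 0.22 in CoA (0.06 as reported) and to 0.13 in Corrected (0.03). The number of pathway genes called was less steady. For CoA vs Control (7), it was 4 with normexp, with Control replicates 3 and 4 as 1 sample, with scan day as a block and with the unmoderated test of the 2 groups, and 4 (without Control replicate 3) to 8 leaving out 1 array. For Corrected vs Control (5), it was 10 with all 12 arrays, 9 with array weights, 8 with slide as a random block, 3 with normexp or scan day as a block, 2 with Control replicates 3 and 4 as 1 sample or the unmoderated test, 1 with slide as a fixed block, and 2 (without Control replicate 4) to 8 (without Control replicate 2) leaving out 1 array, with 3 without Control replicate 3 or Corrected replicate 4. For CoA vs Corrected (0), it was 1 with all 12 arrays, array weights, slide as a random block or no detection filter, and 0 to 2 (without Corrected replicate 2 or 4) leaving out 1 array. The cause of these moves was not tested.

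The replicate numbers were not found to pair the rabbits, since the deviations of same-numbered arrays correlated at -0.45 to 0.45 (10 pairs), against -0.54 to 0.44 for other pairs. With the replicate block, HGF differed by 1.65, 1.61 and 0.04 and 6, 3 and 0 pathway genes were called. Slide as a fixed block could give no value for CoA. Counts of all probes called, compared after the values were seen, ranged from 934 (normexp) to 5193 (array weights) around 2404 for CoA vs Control, from 547 (slide as a fixed block) to 2851 (all 12 arrays) around 1471 for Corrected vs Control and from 117 (normexp) to 1779 (without Corrected replicate 2) around 755 for CoA vs Corrected. With array weights 11022 probes and with slide as a random block 869 probes passed adjustment for CoA vs Control. Depth here means signal over background, which limits how well the folds are measured. In Control it was 3.45 to 8.37 for the brightest HGF probe and 2.36 to 4.7 for the dimmest. MET, and the genes of the pathway without a named probe, could not be followed.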
